A study of Mus musculus with 4 samples.

Results

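The LRRC8 proteins are the subunits of the volume-regulated anion channel, the pore through which swollen animal cells release chloride and small organic molecules. The genes Lrrc8a, Lrrc8b, Lrrc8c, Lrrc8d and Lrrc8e were taken by symbol from GENCODE M21, and all 5 were found, with the same versioned Ensembl identifier, among the 55401 genes of the count files. Of these, 4 had enough reads to enter the fit across all genes, and Lrrc8e did not. The family was selected on its measured levels and fold changes in this same comparison of groups, so the subunits' levels, shares and fold changes are given as a description, with no p-value for a subunit.

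RNA was sequenced from the semimembranosus, a hamstring muscle, of 8-week-old C57BL/6 mice with an iliac vein stenosis (IVS), made by tying the left external iliac vein over a 30-gauge needle. Mice of the IVS group (2 libraries) received saline by stomach tube each day. Mice of the IVS_diosmin group (2 libraries) received 40 mg/kg of diosmin, a plant flavonoid taken for vein disease, in the same way. The comparison asks how transcript levels in this muscle differ when mice with the stenosis receive diosmin, and all 4 libraries come from mice with the vein tied. The labels do not say that replicates came from separate animals, so the spread between them may be technical. Gene counts ran from 13056650 to 15324354 per library. As a check of the tissue, the 8 fast fibre markers (Acta1, Ckm, Myh4 and others) summed to 90361 to 100621 CPM (reads scaled to library size, with TMM factors between libraries), and no library had a read on any of the 6 neutrophil markers. In bulk tissue, fewer cells of a type and less RNA per cell cannot be told apart.

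The channel is a hexamer. LRRC8A is the obligatory subunit, without which the others do not form a working channel at the cell surface, and LRRC8B to LRRC8E join it in varying mixtures that set what the pore lets through. LRRC8C, first described as a factor of adipocyte differentiation, carries mainly small anions together with LRRC8A. LRRC8D widens the pore for taurine and some drugs, and LRRC8E, like LRRC8C, takes part in the passage of the immune messenger cGAMP between cells. In skeletal muscle and in endothelium, LRRC8A is also known for its link to insulin and AKT signalling.

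The 5 coding sequences differ from each other along their length. They ran from 2385 bases in Lrrc8e to 2577 bases in Lrrc8d, and the share of identical bases in pairwise global alignment ran from 60.9% (Lrrc8b with Lrrc8e) to 68.4% (Lrrc8a with Lrrc8b). The longest run identical in any pair was 30 bases, in Lrrc8b and Lrrc8c, and the next was 26 bases, in Lrrc8a and Lrrc8b. The aligned stretch of all 5 is shown because it holds the longest of these runs (GENCODE M21 transcripts, sense strand). Other pairs had their longest runs elsewhere, and bases outside the coding sequence were not compared. Capitals mark bases that differ from the run common to Lrrc8b and Lrrc8c.
Lrrc8b: gagctggacctgaaggagaacaacctcaag
Lrrc8c: gagctggacctgaaggagaacaacctcaag
Lrrc8a: gagAtTgacctgaaggaCaacaacctcaag
Lrrc8e: gaActTgacctTaaggaCaacCacctTCGg
Lrrc8d: gagctggaTTtAaagTCAaacaacAtcCGg
In this stretch Lrrc8a differed from Lrrc8b at 3 of 30 positions, Lrrc8e at 8 and Lrrc8d at 9.

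Lrrc8a, the obligatory subunit (mm10 chromosome 2, 30237715 to 30263790, plus strand), was lower in both diosmin libraries. It had 226 and 207 reads in IVS replicates 1 and 2, and 56 and 67 reads in the 2 IVS_diosmin libraries. On the CPM scale these were 12.9 and 16.8 in IVS against 4.32 and 4.65 with diosmin. The groups did not overlap, and the distance between them was larger than the distance between replicates. The group means were 14.9 ± 2.8 and 4.48 ± 0.24 CPM (SD, n = 2). The log2 fold change in edgeR was -1.72 ± 0.29 (SE). Its level with diosmin was 30.2% of that in IVS.

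The count of Lrrc8a covers little of the gene. A second annotated gene on the same strand, Gm28035, whose exons continue past Lrrc8a into the next gene, shares 2853 of the 4308 exon bases of Lrrc8a, which is 66.2%. All 2430 coding bases of Lrrc8a lie in that shared part. A read that lies in exons of 2 genes is set aside as ambiguous in HTSeq's default counting, and the setting used is not given in the sources used here. Gm28035 had 0 reads in each of the 4 libraries, so no read of the shared exons was credited to it. Of the 1455 exon bases that Lrrc8a does not share, 1364 are the end of its last exon (30262427 to 30263790), beyond the coding sequence. The remaining 91 bases lie opposite exons of the antisense gene 1700084E18Rik, which had 4 to 12 reads per library.

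**Figure D1:**
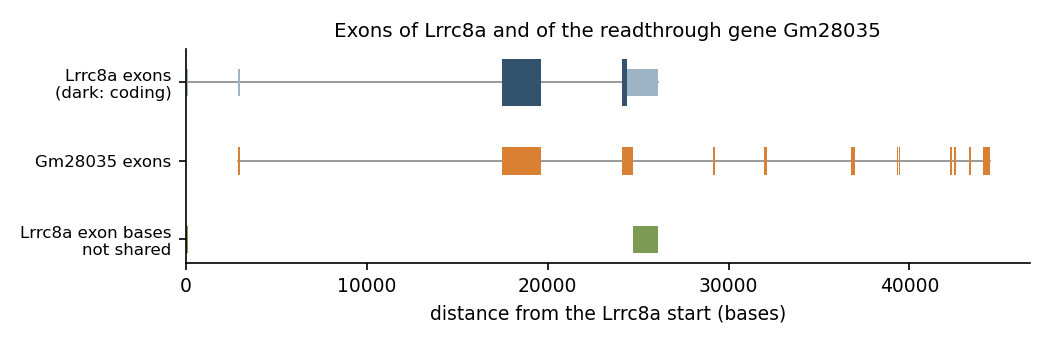
Exons of Lrrc8a (top row, coding part dark) and Gm28035 (middle row), with the exon bases of Lrrc8a that Gm28035 does not share (bottom row), by distance in bases from the Lrrc8a start. The coding block and its continuation are shared, and the unshared part is 1364 bases at the far end and 91 bases at the start.

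Lrrc8c was the subunit with the largest difference between groups among the 4 in the fit. This gene (chromosome 5, 105519388 to 105613018, plus strand) had 304 and 361 reads in IVS replicates 1 and 2 and 53 and 75 reads in IVS_diosmin replicates 1 and 2. Its levels were 17.4 and 29.3 CPM in IVS and 4.09 and 5.21 CPM with diosmin. The IVS replicates lay further apart than those of Lrrc8a, yet the lower of them was still above both diosmin libraries. The means were 23.4 ± 8.5 and 4.65 ± 0.79 CPM (SD, n = 2). On the log2 scale the difference was -2.32 ± 0.31 (SE), and the level with diosmin was 19.9% of that in IVS. Among all 13533 tested genes, 0.458% had a lower log2 fold change than Lrrc8c and 1.31% a lower one than Lrrc8a. These ranks are a description only, since the family was selected on its fold changes in this comparison.

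Lrrc8b, the least studied subunit (chromosome 5, 105415775 to 105490074, plus strand), was a low-count gene with a difference of the same size as that of Lrrc8a and a wider error. It had 55 and 30 reads in IVS replicates 1 and 2, and 12 and 11 in the diosmin libraries. In CPM this was 3.14 and 2.44 against 0.925 and 0.764 CPM, without overlap of the groups. The log2 fold change was -1.72 ± 0.58 (SE), with means of 2.79 ± 0.50 and 0.844 ± 0.114 CPM (SD, n = 2).

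Lrrc8d, the subunit of taurine and drug passage (chromosome 5, 105699969 to 105832436, plus strand), overlapped between the groups. Its reads numbered 37 and 13 in IVS replicates 1 and 2, and 14 and 27 in IVS_diosmin replicates 1 and 2. The corresponding 2.12, 1.06, 1.08 and 1.87 CPM put both groups over the same range. The log2 fold change of -0.11 ± 0.65 (SE) was within the spread of the replicates, and its sign turned to 0.48 without IVS replicate 1 and to 0.22 without IVS_diosmin replicate 1. An error of this size does not show that the level was the same. An antisense gene, Lrrc8dos, overlaps 218 of the 12573 exon bases of Lrrc8d, and it had 0 to 2 reads per library.

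Lrrc8e (chromosome 8, 4226827 to 4237470, plus strand) was near the limit of detection. It had 0 and 2 reads in IVS and 4 and 2 reads with diosmin. The 0 in IVS replicate 1 allows a level of up to 0.172 CPM (3 reads), and the other libraries had 0.139 to 0.308 CPM. The ratio of diosmin to IVS was 3.27 from 6 and 2 reads, with a 95% exact conditional binomial (Clopper-Pearson) interval of 0.584 to 33.1. Intervals and limits here cover counting error only, as reads of amplified libraries are not independent molecules.

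**Figure D2:**
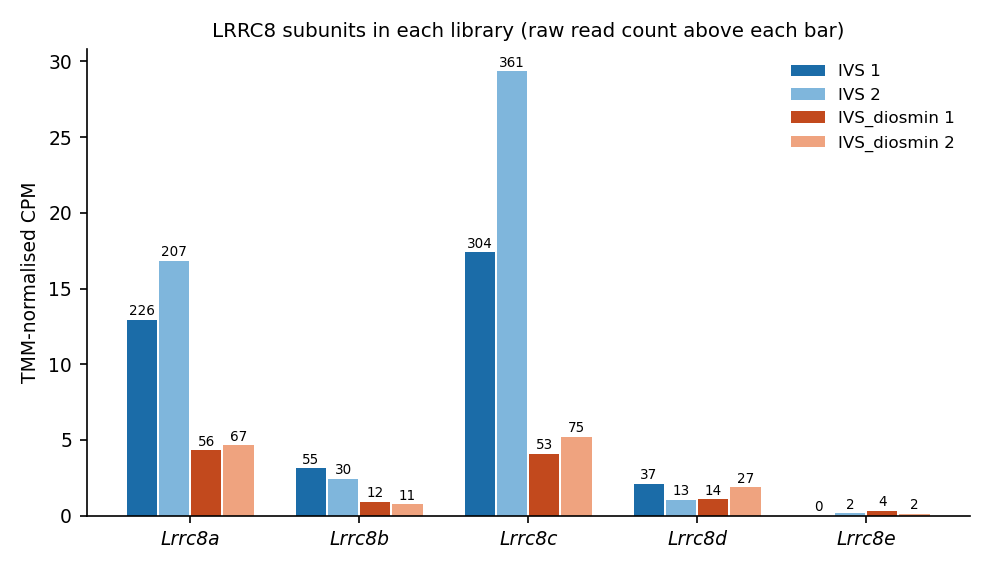
TMM-normalised CPM of the 5 subunits in each of the 4 libraries, with the raw read count above each bar. Both IVS bars stand above both diosmin bars for Lrrc8a, Lrrc8b and Lrrc8c, the bars of Lrrc8d interleave between 1.06 and 2.12 CPM, and Lrrc8e is at 0.308 CPM or less.

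Summed over the family, 622 and 613 reads were counted in the IVS libraries and 139 and 182 reads in the diosmin libraries, or 35.6 and 49.8 CPM against 10.7 and 12.6 CPM. Lrrc8a and Lrrc8c together make up most of this sum, so it follows those 2 genes.

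By edgeR's quasi-likelihood test with Benjamini-Hochberg adjustment over all 13533 tested genes, 400 genes differed between the groups (2.96%), of which 241 (1.78%) were lower and 159 (1.17%) higher with diosmin. Lrrc8a and Lrrc8c were among the lower genes, and Lrrc8b and Lrrc8d did not pass. Both IVS libraries were above both diosmin libraries for 3 of the 4 tested subunits, and for 24.1% of all tested genes. Nothing is read from either count, since the family was chosen by this comparison. Not every call held with 1 library left out. Such fits leave 1 library in a group, so only fold changes are given here, whether or not a call held. Without IVS replicate 2 the log2 fold change was -1.53 for Lrrc8a and -1.90 for Lrrc8c. Without IVS_diosmin replicate 1 it was -1.67 for Lrrc8a and -2.16 for Lrrc8c. DESeq2 on all 4 libraries called the same number of subunits, 2. The log2 fold change of Lrrc8a stayed between -1.91 and -1.53, that of Lrrc8b between -1.90 and -1.52 and that of Lrrc8c between -2.66 and -1.90 over the 11 other settings and left-out libraries that were run.

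**Figure D3:**
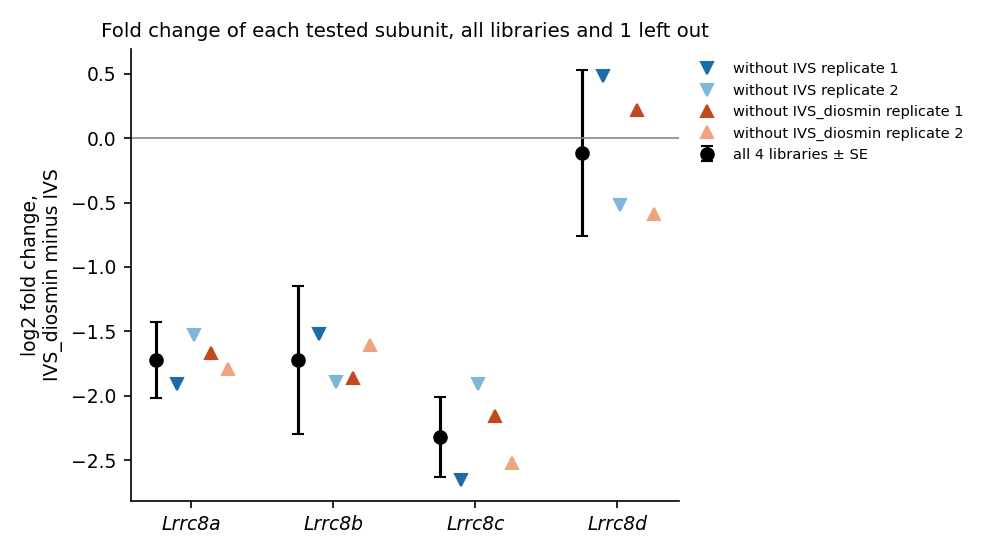
Log2 fold change, IVS_diosmin minus IVS, of the 4 tested subunits with all libraries (black, ± SE) and with each library left out in turn (triangles). Lrrc8a, Lrrc8b and Lrrc8c remain below -1.5 in each fit, and Lrrc8d lies on both sides of 0.

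Levels of different genes can be compared only per length of the part that was counted. Per kb of all annotated exon bases, the level of Lrrc8a is too low if reads of its shared exons were set aside. By this length Lrrc8a was at 3.45 ± 0.64 and Lrrc8c at 3.05 ± 1.10 CPM per kb in IVS (SD, n = 2). These do not differ beyond their spread, although Lrrc8a was above Lrrc8c in each library. With diosmin they were at 1.04 ± 0.05 and 0.607 ± 0.104 CPM per kb, again with Lrrc8a above Lrrc8c in both libraries. Lrrc8b followed at 0.415 ± 0.074 CPM per kb in IVS and 0.126 ± 0.017 with diosmin. Lrrc8d was at 0.126 ± 0.060 CPM per kb in IVS and 0.117 ± 0.045 with diosmin, and Lrrc8b and Lrrc8d did not differ beyond their spread in the diosmin libraries. Lrrc8e was at 0.0746 CPM per kb or less in every library.

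Per kb of exon bases that no other gene shares on the same strand, Lrrc8a rises to 10.2 ± 1.9 CPM per kb in IVS and 3.08 ± 0.16 with diosmin. Counting without the strand would set aside a further 91 bases of Lrrc8a and 218 bases of Lrrc8d that lie opposite antisense genes. The same-strand length thus fits only counting that keeps the strand and sets ambiguous reads aside. By this length, chosen after the overlap was seen, Lrrc8a was further above Lrrc8c in all 4 libraries, with Lrrc8c at 2.27 and 3.83 CPM per kb in IVS replicates 1 and 2. Per kb of coding sequence the order turned in all but IVS_diosmin replicate 1, with Lrrc8c at 9.70 ± 3.51 and Lrrc8a at 6.12 ± 1.13 CPM per kb in IVS. All coding bases of Lrrc8a are shared, so coding length can serve for it only if reads of shared exons were counted. The rank of Lrrc8a against Lrrc8c was thus the same by both exon lengths and differed by coding length, and in IVS replicate 2 also by the longest transcript. Lrrc8d is uncertain in the same way, because its 10 annotated transcripts give 12573 exon bases against 5736 in the longest of them.

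Shares of the family are given per kb of all exon bases, which understates Lrrc8a if reads of its shared exons were set aside. Lrrc8a held 50.8% and 47.5% in IVS replicates 1 and 2, and 54.6% and 52.5% in IVS_diosmin replicates 1 and 2. Lrrc8c held 38.4% and 46.6% in IVS and 29.1% and 33.1% with diosmin, so its share was lower in both diosmin libraries. Lrrc8d held 2.85% and 1.02% in IVS and 4.68% and 7.25% with diosmin, higher in both diosmin libraries. Its own level overlapped between the groups. The shares of Lrrc8b overlapped, at 7.92% and 4.41% in IVS and 7.50% and 5.52% with diosmin.

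In a count ratio of 2 subunits the lengths are the same in every library, so such ratios can be set side by side across libraries whatever length is used. There were 1.35 and 1.74 reads of Lrrc8c per read of Lrrc8a in IVS replicates 1 and 2, and 0.946 and 1.12 in IVS_diosmin replicates 1 and 2. For Lrrc8b the ratio to Lrrc8a was 0.243 and 0.145 in IVS and 0.214 and 0.164 with diosmin, which overlap. Lrrc8d had 0.164 and 0.0628 reads per read of Lrrc8a in IVS, and 0.250 and 0.403 with diosmin. As a share of all LRRC8 reads, Lrrc8d made up 5.95% (95% exact binomial interval 4.22 to 8.11) and 2.12% (1.13 to 3.60) in IVS, and 10.1% (5.62 to 16.3) and 14.8% (10.01 to 20.8) with diosmin. The intervals of IVS replicate 1 and IVS_diosmin replicate 1 overlap. Those of the 2 IVS replicates do not, so replicates differed beyond the counting error that the intervals cover. Such intervals therefore cannot compare the groups. In CPM Lrrc8d itself overlapped between the groups, while Lrrc8a and Lrrc8c, which hold most of the reads, were lower with diosmin.

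**Figure D4:**
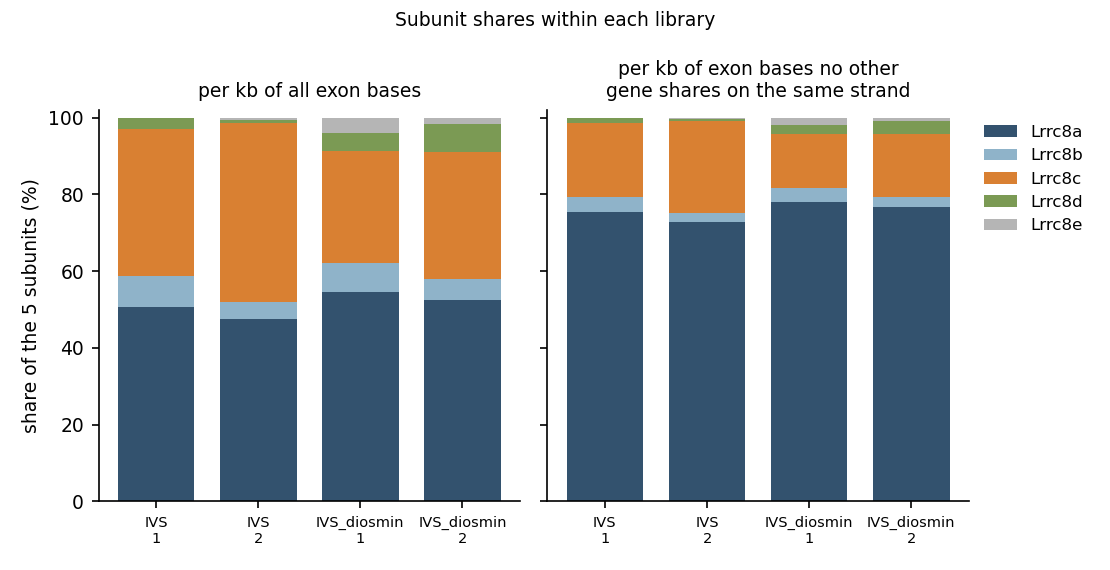
Share of each subunit in the summed level of the 5, in each library, per kb of all exon bases (left) and per kb of exon bases that no other gene shares on the same strand (right). The share of Lrrc8c is lower in both diosmin libraries in either panel, and that of Lrrc8a moves from 47.5% to 54.6% on the left to 72.8% to 78.1% on the right.

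Lrrc8b, Lrrc8c and Lrrc8d stand in a row on chromosome 5, all on the plus strand, while Lrrc8a and Lrrc8e stand alone. Lrrc8b and Lrrc8c are 29313 bases apart, and Lrrc8c and Lrrc8d are 86950 bases apart, with no other protein-coding gene between them. Within this row Lrrc8d had a log2 fold change of -0.11 ± 0.65 (SE) beside -2.32 ± 0.31 for Lrrc8c. The difference between these fold changes was not tested. On the far side of Lrrc8b, at 122076 bases, lies Gbp6, an interferon-induced GTPase with close copies nearby that its reads may be shared with. Gbp6 rose, from 2.34 and 2.60 CPM in IVS to 11.1 and 5.76 CPM with diosmin (log2 1.77 ± 0.41, edgeR adjusted p = 0.0394). Beyond Lrrc8d lies Zfp326, a zinc finger protein, which did not pass (log2 -0.69 ± 0.26, edgeR adjusted p = 0.193). Next to Lrrc8a, neither Kyat1, a kynurenine aminotransferase (log2 -0.06 ± 0.23, edgeR adjusted p = 0.942), nor Phyhd1, a dioxygenase-like protein with 11 to 33 reads that also shares exons with Gm28035 (log2 0.88 ± 0.69, edgeR adjusted p = 0.585), passed. Beside Lrrc8e, Map2k7, a kinase of the JNK pathway, did not pass (log2 0.76 ± 0.27, edgeR adjusted p = 0.163), and Prr36 had 0 to 2 reads.

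The sequences just upstream of 3 subunits with lower levels and of Lrrc8d, whose groups overlapped, are shown for comparison (RefSeq windows on GRCm38.p6, plus strand, ended before the first annotated exon). The motifs searched, on both strands, were the CCAAT box (CCAAT), the GC box (GGGCGG), the cAMP response element (TGACGTCA), an E-box (CACGTG), an ETS core (CCGGAAG) and TATAAA, all chosen with the sequences in view, and capitals mark every match.
Lrrc8a, chr2:30237519-30237714: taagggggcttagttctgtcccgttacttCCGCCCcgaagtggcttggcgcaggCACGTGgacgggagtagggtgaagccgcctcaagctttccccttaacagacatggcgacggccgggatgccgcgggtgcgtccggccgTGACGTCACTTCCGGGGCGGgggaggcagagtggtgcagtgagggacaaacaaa
Lrrc8c, chr5:105519221-105519387: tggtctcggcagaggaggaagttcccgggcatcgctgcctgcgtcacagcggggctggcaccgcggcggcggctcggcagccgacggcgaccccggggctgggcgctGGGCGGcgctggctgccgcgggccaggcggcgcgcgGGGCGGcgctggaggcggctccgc
Lrrc8b, chr5:105415525-105415774: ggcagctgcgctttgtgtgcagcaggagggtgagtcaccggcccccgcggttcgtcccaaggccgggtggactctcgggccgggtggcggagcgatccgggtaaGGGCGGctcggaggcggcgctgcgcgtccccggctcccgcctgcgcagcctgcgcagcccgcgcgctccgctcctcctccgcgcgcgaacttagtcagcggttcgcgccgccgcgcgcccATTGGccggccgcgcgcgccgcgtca
Lrrc8d, chr5:105699719-105699968: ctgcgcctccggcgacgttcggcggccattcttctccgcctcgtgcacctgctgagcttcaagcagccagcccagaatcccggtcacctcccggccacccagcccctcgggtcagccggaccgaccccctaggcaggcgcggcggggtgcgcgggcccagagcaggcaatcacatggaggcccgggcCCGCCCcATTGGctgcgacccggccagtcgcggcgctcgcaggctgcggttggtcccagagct
Counted from the first base shown, the Lrrc8a window held a cAMP response element at 143, followed by an ETS core at 151 on the minus strand and a GC box at 157, of which the last 2 share 1 base. It also held an E-box at 55 and a GC box at 30 on the minus strand. Lrrc8c held GC boxes at 108 and 144, while Lrrc8b and Lrrc8d each held a GC box and a CCAAT box. Over all 32851 RefSeq windows of 250 bases before a start, 1.55% held the cAMP response element, 6.02% the E-box, 6.91% the ETS core, 32.7% the GC box and 33.8% the CCAAT box. The windows shown of Lrrc8a and Lrrc8c are shorter, at 196 and 167 bases. In its full 250 bases Lrrc8a held 3 GC boxes. None of the 5 genes' windows held TATAAA, which 12.4% of all windows did. The 250 bases before the start had 25 CpG dinucleotides in Lrrc8a, 35 in Lrrc8c, 43 in Lrrc8b and 27 in the first of 2 windows of Lrrc8d, against 8 in Lrrc8e and a median of 6 over all windows. So the 4 subunits with more reads had CpG-rich starts, and no searched motif was common to Lrrc8a, Lrrc8b and Lrrc8c but lacking in Lrrc8d.

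The other genes of volume control passed the test about as often as all genes did. In the 7 lists drawn up around the channel, 2 of 79 tested genes passed the edgeR test, beside 2.96% of all tested genes, both lower with diosmin, and the median log2 fold change was 0.13, beside 0.0064 over all tested genes. These 2 were Aqp1 and Cav1, which are both abundant in endothelium. Aqp1, the water channel of capillaries and red cells, was at 394 and 548 CPM in IVS and 92.1 and 155 CPM with diosmin (log2 -1.93 ± 0.28, edgeR adjusted p = 0.00491). Cav1, the caveola protein to which LRRC8A is tied in signalling complexes, was at 246 and 224 CPM in IVS and 68.8 and 95.7 CPM with diosmin (log2 -1.52 ± 0.22, edgeR adjusted p = 0.00457). Without IVS_diosmin replicate 1 both missed the threshold, with edgeR adjusted p = 0.108 for Aqp1 and 0.116 for Cav1.

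Among volume-sensing kinases and cation-chloride cotransporters, 0 of 12 tested genes passed in edgeR and 0 in DESeq2, with 2 at an unadjusted p under 0.05 and a median log2 fold change of 0.18. At 2.96% called over all genes, a count of 0 in a list of this size is near the background, and so it is for the other lists with 0. Cab39, a scaffold of the kinases that switch these cotransporters, was at 47.9 and 45.7 CPM in IVS and 66.9 and 76.6 CPM with diosmin (log2 0.62 ± 0.20, edgeR adjusted p = 0.124). Wnk2, a chloride-sensing kinase, had a log2 fold change of 0.39 ± 0.23 (edgeR adjusted p = 0.449). For osmolyte transport and the tonicity response, 0 of 10 passed in edgeR and 0 in DESeq2, with 2 at an unadjusted p under 0.05 and a median of -0.026. Sgk1, a kinase induced by cell shrinkage and steroid hormones, was at 184 and 179 CPM in IVS and 128 and 118 CPM with diosmin (log2 -0.56 ± 0.20, edgeR adjusted p = 0.164). Slc38a2, an amino acid transporter, had a log2 fold change of -0.17 ± 0.23 (edgeR adjusted p = 0.785).

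None of the 20 tested chloride and anion channels outside the family passed in edgeR or DESeq2 (0 in each), with 3 at an unadjusted p under 0.05 and a median of 0.069. Clcn1, the channel that sets the resting chloride conductance of muscle fibres, was at 44.1 and 23.4 CPM per kb in IVS and 40.1 and 48.6 CPM per kb with diosmin, above Lrrc8a in every library by either exon length. Its log2 fold change was 0.39 ± 0.28 (edgeR adjusted p = 0.544). Ano5, an anoctamin of muscle membrane repair, had a log2 fold change of 0.71 ± 0.26 (edgeR adjusted p = 0.185). Of the pannexins, CALHM channels and connexins, which form large pores as the LRRC8 proteins do, 0 of 5 tested genes passed in edgeR and 0 in DESeq2, with 1 at an unadjusted p under 0.05 and a median of 0.46. Gja1, a connexin of vessels and fibroblasts, had a log2 fold change of -0.81 ± 0.36 (edgeR adjusted p = 0.295), and Gjc1, another connexin, of -0.59 ± 0.39 (edgeR adjusted p = 0.5005).

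Of LRRC8A partners and insulin-AKT signalling genes, Cav1 alone of 15 passed, beside 2.96% of all tested genes, and the median was -0.26. Akt2, the AKT kinase of insulin-responsive tissues, did not pass (log2 0.29 ± 0.22, edgeR adjusted p = 0.561). In the cGAMP transport and STING pathway list 0 of 7 passed in edgeR and 0 in DESeq2, with 2 at an unadjusted p under 0.05 and a median of -0.21. Irf3, the factor that this pathway activates, had a log2 fold change of -0.26 ± 0.21 (edgeR adjusted p = 0.617), and Abcc1, an exporter of cGAMP, of 0.54 ± 0.22 (edgeR adjusted p = 0.246). Among channels opened by swelling or stretch, with the aquaporins, Aqp1 alone of 10 passed, beside the same 2.96%, with a list median of 0.36. Tmem63b, an osmosensitive cation channel, had a log2 fold change of 0.29 ± 0.20 (edgeR adjusted p = 0.519).

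Endothelial markers were lower in the same libraries as Lrrc8a, Lrrc8b and Lrrc8c. Of 10 endothelial markers, 9 had lower values with diosmin, and 5 of them fell by the edgeR test (Cdh5, Pecam1, Kdr, Erg and Esam). Their median log2 fold change over the 10 was -0.96. Over all tested genes 49.5% had lower values, 1.78% were called lower and the median was 0.0064. Without IVS_diosmin replicate 1, Cdh5 (log2 -1.42, edgeR adjusted p = 0.0841) and Pecam1 (log2 -1.02, edgeR adjusted p = 0.185) missed the threshold. Pecam1 also missed it without IVS replicate 2 (edgeR adjusted p = 0.178) and without IVS_diosmin replicate 2 (edgeR adjusted p = 0.0553). The 10 summed to 473 and 488 CPM in IVS and to 255 CPM in each diosmin library, and none was at 0. Per 1000 reads of these markers there were 27.3 and 34.5 reads of Lrrc8a in IVS and 16.9 and 18.2 with diosmin. For Lrrc8c there were 36.7 and 60.1 in IVS and 16.0 and 20.4 with diosmin, and for Lrrc8b 6.65 and 5.00 against 3.63 and 2.99. These 3 ratios were lower in both diosmin libraries, as were those of the same subunits to Cdh5 or Pecam1 alone. The subunits had been selected on their fold changes in this comparison, so lower ratios to markers that fell less were likely beforehand. Lrrc8a had 11.7 and 16.1 reads per 100 of Cdh5 in IVS and 9.59 and 11.6 with diosmin, the narrowest gap. Lrrc8c had 22.1 and 30.6 reads per 100 of Pecam1 in IVS and 9.78 and 12.1 with diosmin. Ratios to Aqp1 and Cav1, which are also abundant in endothelium and fell further than the summed markers, mostly overlapped. Aqp1 and Cav1 were taken up because they passed as lower in this comparison, so overlap was likely beforehand. Per 100 reads of Aqp1 there were 3.28 and 3.07 reads of Lrrc8a in IVS and 4.69 and 3.00 with diosmin, and 4.41 and 5.35 reads of Lrrc8c in IVS against 4.44 and 3.36. Per 100 reads of Cav1 there were 5.25 and 7.51 reads of Lrrc8a in IVS and 6.27 and 4.86 with diosmin, and 1.28 and 1.09 reads of Lrrc8b in IVS against 1.34 and 0.798. Only Lrrc8c per read of Cav1 did not overlap among the ratios of Lrrc8a, Lrrc8b and Lrrc8c to these 2 genes (7.06 and 13.1 per 100 in IVS, 5.94 and 5.44 with diosmin). Whether a subunit was lower relative to endothelial RNA thus depended on the gene it was set against. The subunits and the genes that gave overlap had both been selected on their fold changes. For Lrrc8d, per 1000 reads of the 10 markers, the ratio was 4.47 and 2.16 in IVS and 4.23 and 7.35 with diosmin, which overlap.

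The largest change among the other marker lists was in slow fibre genes. All 8 slow fibre markers rose by the edgeR test, beside 1.17% of all tested genes called higher. Their sum went from 64.1 to 88.5 CPM in IVS to 1301 to 3081 CPM with diosmin. Adipocyte markers, given because of the role of LRRC8C, summed to 11.3 and 30.3 CPM in IVS and 6.01 and 14.0 CPM with diosmin, which overlap. All 3 tested adipocyte markers had lower values with diosmin (median log2 -0.89), and 0 of them passed in edgeR (1 in DESeq2, and 1, Cidec, at an unadjusted p under 0.05). Smooth muscle and pericyte markers summed to 232 to 236 CPM in IVS and 215 to 243 CPM with diosmin, and macrophage markers to 26.6 to 55.7 and 29.1 to 45.7 CPM. Of the 4 tested genes listed as signs of RNA quality, 3 had lower values with diosmin (median log2 -1.06), in the same libraries as the lower subunits. Of the 4, 2 (Rn7sk and Lars2) fell by the edgeR test, beside 1.78% of all tested genes called lower. DESeq2 called 3 of the 4, beside 587 of all 13533 tested genes. Rn7sk, a small nuclear RNA, was at 34.6 and 33.5 CPM in IVS and 11.9 and 5.97 CPM with diosmin, and Lars2, a mitochondrial tRNA synthetase gene that tends to collect ribosomal RNA reads, was at 2006 and 1866 against 584 and 522 CPM. Their log2 fold changes, -1.94 for Rn7sk and -1.81 for Lars2, were as large as that of Lrrc8a. The nuclear RNA Neat1 had higher values with diosmin, 2583 and 2299 CPM in IVS against 4971 and 3210 CPM (log2 0.74 ± 0.24, edgeR adjusted p = 0.124), and Malat1, another nuclear RNA, had a log2 fold change of -0.31. Reads that mapped to several places made up 37.7% and 38.8% of all reads in IVS and 45.6% and 43.6% with diosmin. The part of endothelial content, of slow fibre content, of these quality signs and of multi-mapped reads in the levels of the subunits was not tested.

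**Figure D5:**
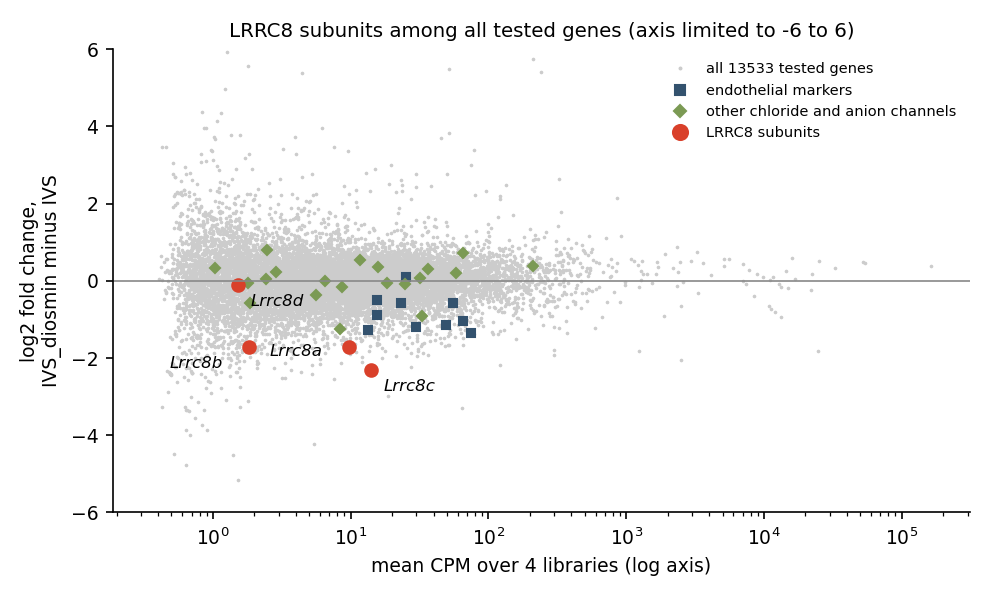
Log2 fold change, IVS_diosmin minus IVS, against mean CPM (log axis) for all 13533 tested genes (grey, 12 of them beyond the vertical limits of 6), with the LRRC8 subunits (red), the endothelial markers (blue squares) and other chloride and anion channels (green diamonds). Lrrc8a, Lrrc8b and Lrrc8c lie below the endothelial markers and the other anion channels, and Lrrc8d lies near 0.

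The tested genes whose pattern over the 4 libraries was most like that of each subunit were found by the Euclidean distance between centred log2(CPM + 0.5) profiles, among 12533 genes with a mean of at least 1 CPM. With 4 libraries this likeness is a description only. Nearest to Lrrc8a were Hsp90aa1, a cytosolic chaperone (distance 0.136), with 27.0 and 37.8 CPM in IVS and 10.6 and 11.3 CPM with diosmin, and the antisense gene Gm38287 (0.160). Nearest to Lrrc8b were Dll4, a Notch ligand of endothelium (0.121), with 16.3 and 13.6 CPM in IVS and 6.48 and 6.04 CPM with diosmin, and Grk5, a kinase of G protein-coupled receptors (0.126). Lrrc8c had more distant neighbours, Cyp2e1, a cytochrome P450 (0.216), and the antisense gene 1700071M16Rik (0.224), both at under 4 CPM in every library. Their log2 fold changes, -3.26 ± 0.78 and -4.50 ± 0.89 (SE), were lower than the -2.32 of Lrrc8c. The added 0.5 CPM shrinks differences at such low levels. Nearest to Lrrc8d were Tgds, a sugar dehydratase (0.0708), and Slc33a1, an acetyl-CoA transporter (0.0824), which like Lrrc8d had overlapping groups. Reads of antisense genes cannot be told apart from those of their opposite partner in a library kit that is not described as keeping the strand.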

How the data were processed

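Poly(A) RNA libraries of 4 muscles (2 IVS, 2 IVS_diosmin) were analysed. The authors deposited 1 table of raw gene counts for each library. Per the submitters' processing notes, the tools were HISAT2 2.1.0 and HTSeq on mm10. How reads shared by genes were handled, which strand was counted and which annotation release was used is not given in the sources used here. All 5 HTSeq summary lines stayed out of library sizes; reads set aside as ambiguous were 1.10% to 1.35% of each library. GENCODE M21 gave symbols and lengths (55141 of 55401 identifiers matched, 54349 with their version), and RefSeq on GRCm38.p6 the upstream sequences.

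Counts were filtered with filterByExpr, scaled by TMM and fitted with the robust quasi-likelihood model of edgeR 4.0.16 in R 4.3.3, tested 2-sided with Benjamini-Hochberg adjustment over 13533 genes and a threshold of 0.05. The standard error is the log2 fold change divided by the square root of F. DESeq2 1.42.0 was an alternative. The smallest p that an exact permutation test could give at 2 libraries per group is 0.333. Replicates differed beyond sampling noise (chi-square per degree of freedom 21.3 for the IVS pair, 14.9 for the IVS_diosmin pair).

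The members and lists were chosen with earlier results of these data known. By rule, the text names all subunits, up to 6 genes of each list past the threshold, the 2 list members of highest level per length where fewer pass, the 2 nearest profiles per subunit, and neighbouring or overlapping genes. Cdh5, Pecam1, Kdr, Erg, Esam, Rn7sk, Lars2, Neat1, Malat1 and Cidec are named from the marker lists.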

Additional observations from a re-analysis of the deposited data

How the results depend on the processing

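The fold changes of Lrrc8a, Lrrc8b and Lrrc8c kept their direction in each of the 11 alternatives, and that of Lrrc8d ran from -0.59 to 0.48 with 1 library left out, reversing to 0.48 without IVS replicate 1 and to 0.22 when IVS_diosmin replicate 1 was dropped. The number of genes called was 400, and it was 919 with no filter on low counts, 587 with DESeq2, and 38 to 366 with 1 library left out; the cause was not tested. Scaling by library totals alone moved the median of all genes by -0.12 on the log2 scale and gave 115 higher and 337 lower calls, against 159 and 241; relative to that shift the subunits kept their directions, with Lrrc8d at -0.26 before it is taken off. The number of subunits called went from 2 to between 0 and 2 with 1 library left out. Of the list genes, 2 were called, 4 with library totals alone, 9 with no filter, and 0 to 6 with 1 library left out, a lone library being assumed to vary like the other group.

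With the replicate number as a block, 93 genes and 1 subunit (Lrrc8c) were called; deviations of same-numbered libraries had a correlation of -0.0014 over genes, so the libraries share only a number and no pairing was used.

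The share of Lrrc8a per length (49.1% in IVS, 53.6% with diosmin) was 46.2% and 48.6% by the longest transcript, 34.9% and 38.6% by coding length, and 74.1% and 77.4% by unshared exon bases, a length chosen after seeing the data. That of Lrrc8c (42.5% and 31.1%) was 54.2% and 40.1% by coding length and 21.7% and 15.2% by unshared exon bases. With 1 library left out these shares were 47.5% to 50.8% and 52.5% to 54.6% for Lrrc8a. Depth limits Lrrc8e most, at 0 to 4 reads per library, followed by Lrrc8b and Lrrc8d.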
